A study of Rattus norvegicus with 23 samples.

Results

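Lungs of rats that breathed only filtered air were compared between the 2 necropsy days of an inhalation study, D0 (immediately after the end of the sessions) and D28 (28 days later). The comparison rests on 12 of the 23 arrays of the series, 6 control arrays on each day with 1 rat per array. They were taken by their titles, which give the control group and the day, and no measured value was used to choose them. The question was which genes move between necropsy days in lungs without particle exposure.

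All rats were male F344 Fisher rats, an inbred strain, and their age is given as 19 months for both days. Control rats had been held in nose-only inhalation towers with filtered air for 6 hours a day, 5 days a week, over 4 weeks. The other 11 arrays, 5 from D0 and 6 from D28, were from rats given an aerosol of titanium dioxide (TiO2, P25) at 10 mg/m3 on the same schedule, and they serve here only as a second pair of D0 and D28 groups. RNA came from the accessory lobe, and each sample was hybridised to a single-colour Agilent rat expression array. The source label of the exposed D28 arrays reads day 0, and their titles, which give day 28, were followed. Because each rat was killed once, the day of necropsy cannot be told apart from 28 days more of age, from the time since the last session in the tower, or from the hour of death, which is not given in the sources used here.

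Most cells of the lung hold a molecular clock. In it, the proteins of Arntl (also named Bmal1) and Clock or its relative Npas2 switch on Per, Cry, Nr1d1, Nr1d2, Dbp, Tef, Hlf and Ciart. The Per and Cry proteins then block this activation, and the proteins of Nr1d1 and Nr1d2 repress Arntl, Npas2, Cry1 and Nfil3, so that one arm of the clock is high at the hours when the other is low. The RNA of most of these genes rises and falls over the day. The extracellular matrix of the lung is made mainly of fibrillar collagens and elastic fibres, whose core is the protein elastin, crosslinked by lysyl oxidase.

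The promoters of clock genes carry short motifs through which these factors act, and they are shown for 6 of the 12 clock genes past the thresholds given below. Of the 12, 11 had a row in the RefSeq promoter table (GRCr8), without Hlf, and the 6 were taken from these by the size of the fitted change. For Ciart, which was near background, that size is uncertain. The 250 bases before each start were searched on both strands for the E-box CACGTG, the D-box TTANGTAA, the core of the ROR element TNGGTCA and the cAMP response element TGACGTCA. Sequences run 5′ to 3′ on the strand of the gene, with the motifs in capitals and none of them overlapping. The stretches lie at chr1:105312006-105312255 (+) for Dbp, at chr9:48959315-48959564 (+) for Npas2, at chr10:84229455-84229704 (-) for the second listed start of Nr1d1, at chr1:176766078-176766327 (+) for Arntl, at chr9:99496994-99497243 (-) for Per2 and at chr2:186112247-186112496 (-) for Ciart.
Dbp: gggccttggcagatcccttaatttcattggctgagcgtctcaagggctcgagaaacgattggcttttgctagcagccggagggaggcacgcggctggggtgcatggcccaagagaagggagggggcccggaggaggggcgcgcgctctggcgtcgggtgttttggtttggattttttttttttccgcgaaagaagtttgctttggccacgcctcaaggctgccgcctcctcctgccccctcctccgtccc
Npas2: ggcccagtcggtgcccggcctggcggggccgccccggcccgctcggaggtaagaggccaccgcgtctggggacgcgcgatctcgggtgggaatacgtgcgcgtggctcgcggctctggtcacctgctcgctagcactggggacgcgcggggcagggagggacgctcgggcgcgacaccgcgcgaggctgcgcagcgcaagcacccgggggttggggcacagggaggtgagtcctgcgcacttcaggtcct
Nr1d1 second start: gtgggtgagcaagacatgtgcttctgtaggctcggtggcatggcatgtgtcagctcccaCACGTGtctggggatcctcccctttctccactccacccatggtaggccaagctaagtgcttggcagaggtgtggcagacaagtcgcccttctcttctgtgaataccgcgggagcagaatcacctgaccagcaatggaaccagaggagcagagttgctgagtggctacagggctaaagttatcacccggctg
Arntl: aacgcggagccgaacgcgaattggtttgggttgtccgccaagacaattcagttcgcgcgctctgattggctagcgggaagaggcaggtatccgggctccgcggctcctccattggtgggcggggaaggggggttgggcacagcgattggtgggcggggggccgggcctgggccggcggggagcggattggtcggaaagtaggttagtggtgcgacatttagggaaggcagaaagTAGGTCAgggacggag
Per2: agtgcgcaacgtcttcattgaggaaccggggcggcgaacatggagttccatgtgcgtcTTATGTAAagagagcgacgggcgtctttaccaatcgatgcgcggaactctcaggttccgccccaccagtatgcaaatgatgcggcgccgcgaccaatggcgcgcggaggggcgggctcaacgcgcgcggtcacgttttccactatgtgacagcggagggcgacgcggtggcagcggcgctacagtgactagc
Ciart: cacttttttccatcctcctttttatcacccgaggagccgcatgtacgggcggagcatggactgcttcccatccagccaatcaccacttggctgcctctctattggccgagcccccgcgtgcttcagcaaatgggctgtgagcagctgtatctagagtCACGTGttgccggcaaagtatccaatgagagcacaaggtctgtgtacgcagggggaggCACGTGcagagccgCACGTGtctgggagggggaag
The E-box stood 191 bases before the second start of Nr1d1, and 93, 35 and 21 bases before the start of Ciart. Per2 had a D-box 192 bases before its start, and Arntl had a ROR element core 16 bases before its start. These letters were not in the windows of Dbp and Npas2, nor before the first listed start of Nr1d1. Among the other clock genes past the thresholds, Tef and Bhlhe40 each held an E-box, 198 and 220 bases before the start. Over all 33469 promoter windows of the table, 5.59% held the E-box, 2.04% the D-box, 9.47% the ROR element core and 1.59% the cAMP response element. Among genes lower on D28, 36 had a promoter row and 7 of these (19.4%) held the E-box, among them Nr1d1, Ciart, Tef and Bhlhe40. Among genes higher on D28, 4 of 56 (7.14%) did. A gene was counted here if any of its listed starts had a match, while the shares over all promoters are per window, so the units differ. A match gives letters in a window, and binding was not measured.

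The 75th percentile of the processed signal had a median of 2233 on D0 (range 1856 to 2835) and 1910 on D28 (range 1711 to 3470). The brightest array, at 3470, was D28 replicate 4. Between 70.7% and 77.9% of spots were marked well above background on the 12 arrays. The mean correlation of an array with the others of its group was 0.9798 to 0.984 on D0 and 0.9701 to 0.9773 on D28. Markers of lung cells were well above background on all 12 arrays, among them Sftpc (type II cells), Ager (type I cells), Scgb1a1 (secretory cells), Foxj1 (ciliated cells) and Pecam1 (endothelium). The arrays lay on 5 slides, each scanned on a day of its own. Both days shared 3 slides with 9 of the control arrays, another slide held 2 control arrays of D0 only, and replicate 4 of D28 was alone on its slide and was the 1 array read with a later version of the scanner software. One tissue stood apart: the 9 skeletal muscle markers had a mean log2 signal of 9.49 on D0 replicate 5 and 7.15 on D0 replicate 3, against 5.61 to 5.83 on the other 4 D0 arrays and 5.10 to 5.71 on D28.

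Between D0 and D28, 140 genes of 23055 tested differed in filtered-air lungs at a Benjamini-Hochberg adjusted p below 0.05 in limma and a change of at least 1.5-fold (0.607% of genes tested). Of these, 89 were higher on D28 (0.386%) and 51 were lower (0.221%). Genes past both thresholds with non-overlapping days and without provisional symbols were ordered by fitted change. Among these, 7 of the 12 largest falls and 2 of the 12 largest rises were clock genes. One of the 7, Ciart, was near background, so that its place in this order is not known. The matrix genes higher on D28 included elastin and the collagen chains Col1a1 and Col3a1. The values of the 6 D0 arrays and the 6 D28 arrays did not overlap for 113 of the 140 genes, while over all genes 1.62% did not overlap. The 140 genes were called on these same arrays, which largely fixes that separation, so the count is a description. The median change over all genes was -0.01 on the log2 scale, which quantile normalization sets near 0. In bulk tissue a lower signal from fewer cells of a type cannot be told apart from less RNA per cell.

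**Figure D1:**
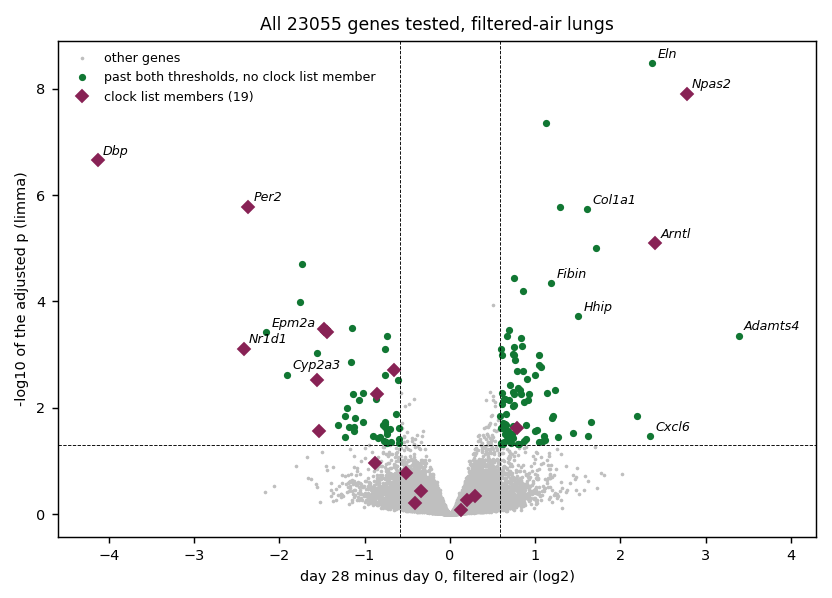
Each point is 1 of the 23055 genes tested, with the change from D0 to D28 in filtered-air lungs on the x axis (log2) and -log10 of the limma adjusted p on the y axis, and dashed lines at the thresholds. Eln and Npas2 had the lowest adjusted p, and Dbp had the largest fall.

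Within slides, the direction was that of the whole comparison for 140 of the 140 genes on slide 1 (1 array of D0 and 2 of D28), for 140 on slide 3 (2 and 2) and for 139 on slide 5 (1 and 1). The genes were chosen on these same arrays, which largely fixes that direction, so these counts are a description. With slide as a block 173 genes passed and 106 were shared. With only the 9 control arrays on shared slides and slide as a block, an alternative added after seeing the data, 51 genes passed and 41 were shared, with 5 residual degrees of freedom. Without D0 replicates 3 and 5, the arrays with the most signal from skeletal muscle markers, 64 genes passed and 59 were shared. Without 1 array at a time, the count lay between 87 and 199. It fell by over 1.5 times without D28 replicate 2 (87), D0 replicate 1 (90), D0 replicate 4 (93) or D28 replicate 4 (93).

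Genes of both arms of the clock differed between the days. The arms were listed from general knowledge, and whether their members move together was not tested. Of 13 measured genes listed with Nr1d1, 9 were lower on D28 and none was higher, with a median change of -1.44 on the log2 scale. That median was -0.63 with normexp background correction and -0.77 on the deposited table. Of 6 measured genes listed with Arntl, 3 were higher and none was lower, with a median of 0.50. Together 12 of 19 clock genes passed the thresholds, beside 0.607% of all genes, and 11 had D0 and D28 arrays that did not overlap.

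**Figure D2:**
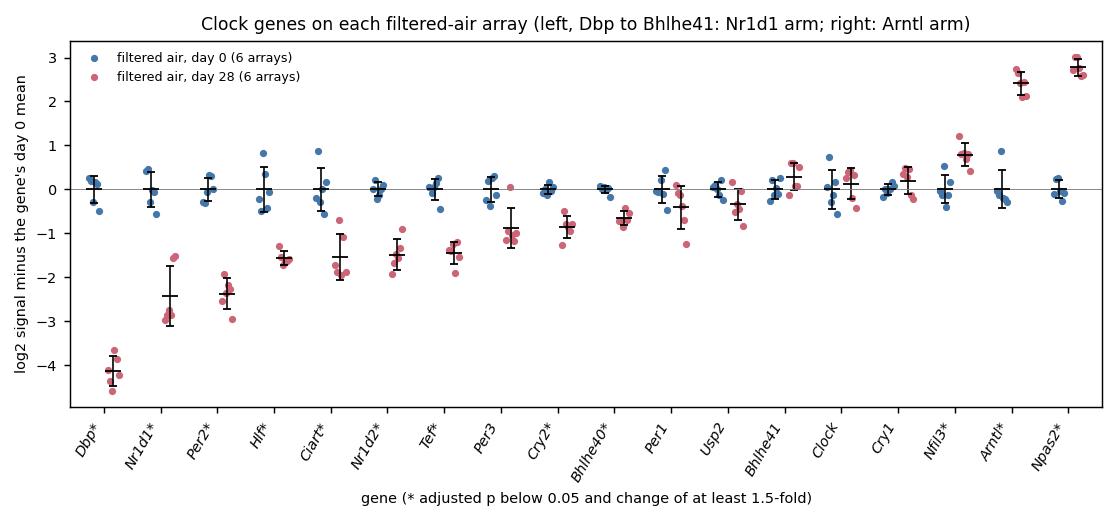
Each point is the log2 signal of 1 filtered-air array minus the mean of that gene on D0, for the clock genes named in the text, with 6 arrays per day, and black marks give the mean ± SD. Dbp had a mean of 13.87 on D0 and 9.74 on D28 with no overlap, and every D28 array of Arntl and Npas2 lay above every D0 array.

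Dbp encodes a transcription factor that binds the D-box and is a direct target of Arntl and Clock, with its probe on chromosome 1 at 96178423-96178482 (rn4). Its log2 signal on D0 was 14.14, 14.07, 13.59, 14.05, 13.99 and 13.39, and on D28 it was 9.75, 9.52, 9.30, 10.22, 10.01 and 9.65. The lowest D0 array was thus far above the highest D28 array. The fall was 17.5-fold (log2 change -4.13 ± 0.33 SE, adjusted p = 2.22e-07, limma).

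Nr1d1 encodes REV-ERBα, the repressor that links the arms of the clock. Its log2 signal on D0 was 9.45, 9.49, 8.75, 9.02, 8.98 and 8.47, and on D28 it was 6.07, 6.16, 6.29, 6.16, 7.46 and 7.51. The D28 arrays formed a low group of 4 and a higher pair, replicates 5 and 6, and both lay below every D0 array. Nr1d1 fell by 2.42 on the log2 scale (SE 0.36, adjusted p = 0.000784, limma). Within slides the difference was -3.27, -2.45 and -0.97, the smallest on slide 5, which held D28 replicate 6. On the 9 arrays of shared slides alone the adjusted p was 0.0985.

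Per2, a repressor of the negative limb, had log2 signals of 9.62, 9.60, 9.84, 10.22, 10.20 and 9.91 on D0 and of 7.36, 7.97, 7.55, 7.73, 7.63 and 6.94 on D28. Every D28 array lay below every D0 array. The fall was 5.16-fold (log2 change -2.37 ± 0.22 SE, adjusted p = 1.66e-06, limma). Its relatives Per3 (log2 difference -0.88, adjusted p = 0.109) and Per1 (-0.41, adjusted p = 0.621) did not pass, and the arrays of the 2 days overlapped for both.

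The factors that share the D-box with Dbp were lower too. Tef changed by -1.44 (adjusted p = 0.000379) and Hlf by -1.56 (adjusted p = 0.00297). Nr1d2, a relative of Nr1d1, changed by -1.48 (adjusted p = 0.000325). Cry2, a repressor of Clock and Arntl, changed by -0.85, and Bhlhe40, which represses through the E-box, by -0.66 (adjusted p of 0.00553 and 0.00198). Ciart, a repressor of the core pair, changed by -1.53 (adjusted p = 0.0274), but it was well above background on only 1 of 6 D0 arrays and on none of D28. With D28 set to the detection floor described below, its fall was 1.38-fold. The fitted change was -0.23 with normexp background correction, so the size of the fall is not known. Ciart lost its call in 12 of 36 alternative settings. Bhlhe41 (0.29) and the clock-controlled protease Usp2 (-0.33) did not pass.

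The opposite arm was led by Npas2, which can take the place of Clock as partner of Arntl. Its log2 signal on D0 was 6.45, 6.79, 6.81, 6.52, 6.29 and 6.48, and on D28 it was 9.28, 9.56, 9.56, 9.31, 9.13 and 9.17. It was 6.85-fold higher on D28 (log2 change 2.78 ± 0.19 SE, adjusted p = 1.24e-08, limma), and the spread between rats was small on both days.

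Arntl had log2 signals of 7.27, 7.17, 8.17, 7.10, 7.08 and 7.01 on D0 and of 10.04, 9.94, 9.72, 9.40, 9.75 and 9.42 on D28. D0 replicate 3 was higher than the other D0 arrays and still below every D28 array. The rise was 5.32-fold (log2 change 2.41 ± 0.25 SE, adjusted p = 8.11e-06, limma). Nfil3, which represses through the D-box, was 1.73-fold higher (adjusted p = 0.0239) with overlapping arrays. Clock (0.13) and Cry1 (0.20) did not pass.

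The change between days was set against that in exposed lungs to see which changes differed between the 2 treatments. The hour of death is not given for any group in the sources used here. In this contrast exposure cannot be told apart from a difference in that hour between the groups. The difference of the 2 changes passed both thresholds for 7 genes (0.0304% of genes tested), and 4 of them, Nr1d1, Dbp, Nr1d2 and Cry1, were clock list members. Nr1d1 fell in filtered air and rose in exposed lungs, and Cry1 fell in exposed lungs and did not pass in filtered air. The exposed and filtered-air groups share no array, so each change has its own error. In exposed lungs 81 genes passed between D0 and D28 (0.351%).

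For Nr1d1, the repressor, exposed arrays held log2 signals of 5.55 to 7.09 on D0 and of 7.40 to 9.75 on D28, so the 2 treatments had opposite orders of the days with no overlap in either. The exposed change was 2.07 and the difference of the changes was 4.49 (adjusted p = 0.000233, limma).

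Dbp ranged from 12.18 to 13.15 on exposed D0 arrays and from 11.13 to 13.72 on exposed D28 arrays. The days overlapped there, with a change of -0.22 (adjusted p = 0.907), and the difference from filtered air was 3.91 (adjusted p = 0.00052). Nr1d2 had an exposed log2 difference of 0.32 between the days (adjusted p = 0.776), and its changes differed by 1.80 (adjusted p = 0.0126).

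Cry1, a repressor of Clock and Arntl, overlapped between the days in filtered air, at 8.79 to 9.14 on D0 and 8.76 to 9.45 on D28, while exposed arrays held 9.57 to 9.98 on D0 and 8.09 to 8.75 on D28. Its exposed change was -1.47, and the difference was -1.67 (adjusted p = 0.000233). Npas2 rose in both settings, by 2.78 and 2.15, and Per2 fell in both, by 2.37 and 1.52, and neither difference passed (adjusted p of 1 for both). For Arntl the changes were 2.41 and 0.58, with an adjusted p of 0.0879 for their difference.

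Outside the clock lists, Rasd2, a small GTP-binding protein, fell by 1.73 in filtered air and had a difference of 0.24 between the days in exposed lungs, and these differed by 1.97 (adjusted p = 0.00243). Prss30, a serine protease, had a log2 difference between the days of 0.05 in filtered air and of -1.51 in exposed lungs (adjusted p = 0.0229 for the contrast of the 2). Grin2c, a glutamate receptor subunit, had differences of 0.13 and 0.95 (adjusted p = 0.0126).

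Most genes called in filtered air had the same sign of change in exposed lungs. Of the 140, 122 (87.1%) did so and 27 passed in both, 26 of these in the same direction. The share of all tested genes with the same sign was not counted, so these counts are a description. The median of the genes called higher was 0.80 in filtered air, where they were chosen, and 0.38 in exposed lungs. For genes called lower these medians were -1.02 and -0.33. Since the genes were selected on the filtered-air values, the gap between these medians was not tested.

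**Figure D3:**
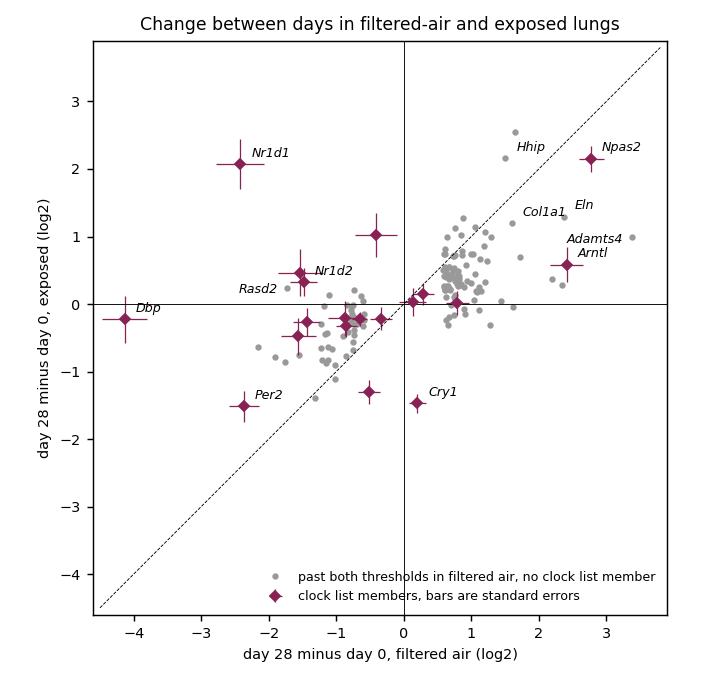
Change from D0 to D28 (log2) in filtered-air lungs on the x axis and in exposed lungs on the y axis, with clock list members as diamonds with standard errors and the other genes called in filtered air as dots. Npas2 and Per2 lie near the dashed line of equal change, while Nr1d1 is in the opposite quadrant and Dbp is near 0 in exposed lungs.

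The second group of changes was in the matrix, where 5 of 134 measured list members passed and all 5 were higher on D28 (3.73% of members, beside 0.386% of all genes called higher). They were 2 of 42 collagens, 2 of 22 elastic fibre genes and 1 of 38 metalloproteinases, ADAMTS proteases and their inhibitors. None of 32 collagen-processing enzymes and other matrix proteins passed. The list medians were small, at 0.19, 0.10, 0.09 and 0.15 on the log2 scale in that order, beside -0.01 over all genes.

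Eln encodes tropoelastin, the precursor of elastic fibres, with its probe on chromosome 12 at 23076983-23077042 (rn4). Its log2 signal on D0 was 9.80, 9.59, 9.76, 10.01, 9.66 and 9.83, and on D28 it was 12.13, 12.49, 11.97, 12.37, 12.18 and 11.73. The lowest D28 array lay well above the highest D0 array, by several times the spread of either day. Eln was 5.17-fold higher (log2 change 2.37 ± 0.14 SE, adjusted p = 3.32e-09, limma), the lowest adjusted p of all genes. In exposed lungs it rose by 1.30 (adjusted p = 7.33e-05), and the difference did not pass (adjusted p = 0.0822).

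Col1a1, a chain of type I collagen, had log2 signals of 9.99, 9.94, 10.11, 10.25, 9.93 and 9.71 on D0 and of 11.31, 11.82, 11.42, 11.92, 11.43 and 11.64 on D28. It was 3.04-fold higher (log2 change 1.60 ± 0.15 SE, adjusted p = 1.84e-06, limma). Col3a1, the chain of type III collagen, ranged from 11.28 to 11.65 on D0 and from 12.51 to 12.92 on D28. It was 2.45-fold higher (adjusted p = 1.66e-06). Both rose in exposed lungs as well, by 1.20 and 1.00 (adjusted p of 0.000265 and 0.000193).

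Lox, lysyl oxidase, ranged from 8.92 to 9.33 on D0 and from 9.73 to 10.04 on D28, without overlap, and was 1.68-fold higher (adjusted p = 3.68e-05). It rose by 0.70 in exposed lungs (adjusted p = 0.000193). Adamts4, which cleaves aggrecan-type proteoglycans, was well above background on none of 6 D0 arrays and on 5 of 6 D28 arrays. Its D28 signals were spread, at 3.77, 6.17, 5.15, 7.73, 5.28 and 5.42, against 1.78 to 2.83 on D0. With D0 set to the detection floor described below, the rise was 4.91-fold (fitted log2 change 3.39, adjusted p = 0.000443). The fitted change was 0.76 with normexp background correction, so the size of the rise is not known. Pcolce, which aids collagen processing, did not pass (0.38, adjusted p = 0.06), and neither did Spon2, a secreted matrix protein (0.71, adjusted p = 0.124).

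Other named genes were higher on D28. Hhip, which binds and holds back hedgehog ligands, ranged from 7.39 to 8.30 on D0 and from 8.96 to 9.64 on D28. It was 2.84-fold higher (adjusted p = 0.000189) and rose by 2.16 in exposed lungs. Hgf, the growth factor for epithelium that mesenchyme secretes, was 2.35-fold higher (adjusted p = 0.00466). Hs3st6, a sulfotransferase of heparan sulfate, was 3.29-fold higher (adjusted p = 1.01e-05), with D28 arrays between 11.49 and 11.80 and D0 arrays between 9.72 and 10.16. Fibin, a secreted protein, was 2.29-fold higher (adjusted p = 4.51e-05). Outside the rule for named genes and picked after its values were seen, Mcub, an inhibitory subunit of the mitochondrial calcium uniporter, was 2.18-fold higher (adjusted p = 4.47e-08), from a mean log2 signal of 8.29 ± 0.11 (SD, n = 6) to 9.42 ± 0.09.

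Of the fibroblast markers, 2 of 10 passed (20%, beside 0.607% of all genes), in opposite directions. Scara5, a ferritin receptor of adventitial fibroblasts, rose by 1.05 (adjusted p = 0.00158) and Inmt, an N-methyltransferase of lung fibroblasts, fell by 1.12 (adjusted p = 0.0234). The per-array mean of the 10 markers overlapped, at 8.73 to 8.84 on D0 and 8.66 to 8.94 on D28. Smooth muscle markers had a median change of 0.01 and none of 10 passed.

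**Figure D4:**
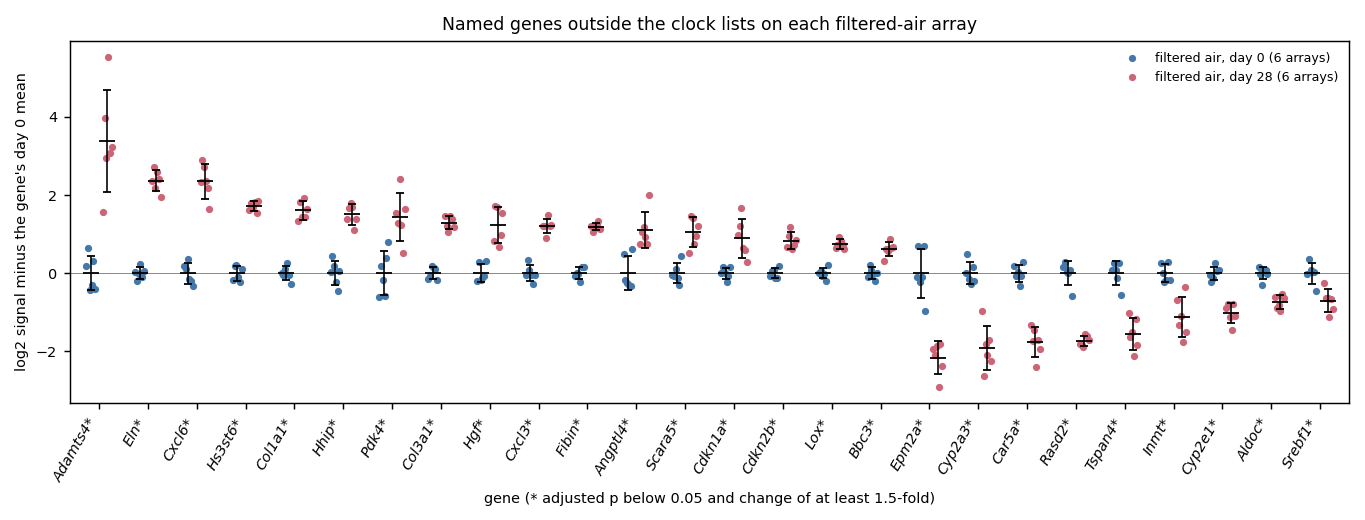
Each point is the log2 signal of 1 filtered-air array minus the D0 mean of that gene, for named genes past both thresholds outside the clock lists, with 6 arrays per day and black marks for the mean ± SD. Eln, Hs3st6 and Fibin had tight, separate days, while Adamts4 ranged from 3.77 to 7.73 on D28 and the days overlapped for Pdk4 and Srebf1. Separate days were required of genes named as largest rises or falls.

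Of 187 measured members of the metabolism lists, 7 passed (3.74%, beside 0.607% of all genes), 3 higher and 4 lower. Those higher belong to the list of fatty acid oxidation and lipid droplets (3 of 35, median change 0.08). Angptl4, an inhibitor of lipoprotein lipase, was 2.15-fold higher (adjusted p = 0.0344). Pdk4, the kinase that turns off pyruvate dehydrogenase, was 2.71-fold higher (adjusted p = 0.0296) with overlapping arrays. Neither Angptl4 nor Pdk4 passed in exposed lungs, where the log2 differences were -0.09 and 0.04, and the adjusted p of the contrast with filtered air was 0.719 and 0.889.

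The 4 genes that were lower came from different lists. Cyp2a3, a cytochrome of the rat respiratory tract, had D0 arrays between 9.60 and 10.39 and D28 arrays between 7.26 and 8.91, and was 3.76-fold lower (adjusted p = 0.00241). Cyp2e1, the ethanol-inducible cytochrome, was 2.03-fold lower (adjusted p = 0.00524) and fell by 0.91 in exposed lungs as well (adjusted p = 0.0282). Both belong to the 29 drug-metabolising enzymes, whose median change was -0.15. Aldoc, an aldolase of glycolysis, was 1.67-fold lower (adjusted p = 0.000446). Srebf1, the transcription factor that drives fatty acid synthesis, was 1.63-fold lower (adjusted p = 0.0249) with overlapping arrays.

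None of 24 measured genes of cholesterol synthesis and uptake passed both thresholds. The log2 difference was below 0 for 22 of them (91.7%, beside 51.1% of all genes), with a median of -0.39. Acat2, which makes the acetoacetyl-CoA that enters the pathway, had a log2 difference of -0.39, with an adjusted p of 0.032 and a size below 1.5-fold. The exposed median of the list was -0.29, also with none past the thresholds. Of 26 genes of fatty acid and triglyceride synthesis, 20 had a difference below 0 (median -0.20) and Srebf1 alone passed. None of 42 respiratory chain subunits passed, and their median was -0.01.

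Other named genes were lower on D28 and lay outside the lists. Car5a, a mitochondrial carbonic anhydrase, was 3.38-fold lower (adjusted p = 0.000104), with D0 arrays between 6.17 and 6.79 and D28 arrays between 4.11 and 5.18. Rasd2 was 3.33-fold lower (adjusted p = 1.95e-05) and Tspan4, a tetraspanin, was 2.94-fold lower (adjusted p = 0.000937). The D0 and D28 arrays of these 3 genes did not overlap, which the rule that named them as largest falls required. Epm2a, the glycogen phosphatase laforin, was well above background on all 6 D0 arrays and on none of D28. With D28 set to the detection floor described below, its fall was 2.68-fold (fitted log2 change -2.16, adjusted p = 0.000379). The fitted change was -0.42 with normexp background correction, so the size of the fall is not known.

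Among 21 cytokines and acute-phase genes, 2 neutrophil chemokines were higher (9.52%, beside 0.386% of all genes called higher). The difference was below 0 for 15 of the 21, and the list median was -0.10. Cxcl3 had log2 signals between 9.46 and 10.09 on D0 and between 10.64 and 11.22 on D28 and was 2.31-fold higher (adjusted p = 0.0143). Cxcl6 was well above background on none of 6 D0 arrays and on 5 of 6 D28 arrays. With D0 set to the detection floor described below, its rise was 2.21-fold. The fitted log2 change was 2.35 (adjusted p = 0.0342, limma), and 0.36 with normexp background correction. Cxcl6 lost this call in 14 of 36 alternative settings. Neutrophil markers did not pass in any of 11 genes, and their per-array mean was 6.70 to 7.67 on D0 and 6.30 to 7.54 on D28.

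Of 16 measured p53 targets and senescence genes, 3 were higher (18.8%, beside 0.386% of all genes called higher). The difference was below 0 for 10 of the 16, and the list median was -0.05. The 3 were the cell cycle inhibitors Cdkn1a (1.86-fold, adjusted p = 0.0383) and Cdkn2b (1.78-fold, adjusted p = 0.000487) and the cell death gene Bbc3 (1.53-fold, adjusted p = 0.00104). Cdkn1a had a difference of -0.08 between the days in exposed lungs, and the contrast with filtered air did not pass (adjusted p = 0.758). Its call in filtered air was lost in 15 of 37 alternative settings, with an adjusted p of up to 0.2. Of 17 glucocorticoid-induced genes, Cdkn1a and Pdk4 were the 2 that passed, both higher (11.8%, beside 0.386% of all genes). The list median was 0.04. None passed among 25 immediate early genes, 20 heat shock genes, 23 genes of the unfolded protein response, 34 interferon-stimulated genes, 12 antigen presentation genes or 35 cell cycle genes. Of the heat shock genes, 17 had a difference below 0, with a median of -0.17 and Hspb8 at -0.63 (adjusted p = 0.0572).

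**Figure D5:**
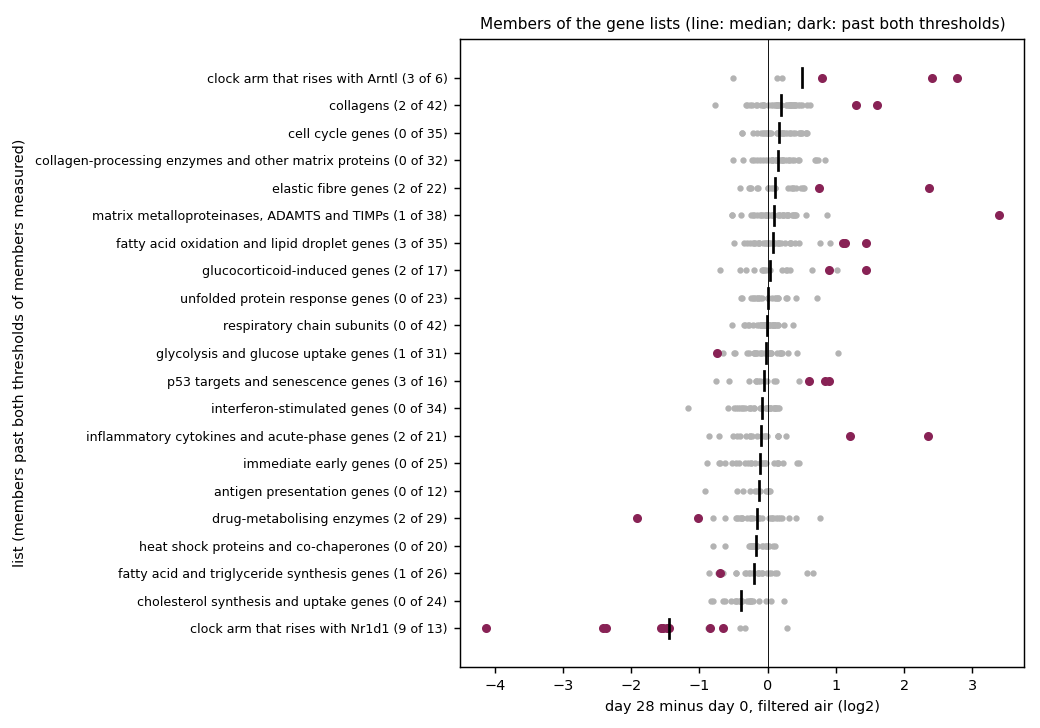
Change from D0 to D28 in filtered-air lungs (log2) of every measured member of the clock, matrix, metabolism, stress and process lists, with dark points past both thresholds and a line at the median. The Nr1d1 arm of the clock had a median of -1.44, all other lists lay between -0.39 and 0.50, and single matrix and metabolic genes stand far from their lists.

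Over 20 marker lists of cell types with 199 measured genes, the 2 fibroblast genes alone passed, and list medians lay between -0.24 and 0.37 except for skeletal muscle. The 9 skeletal muscle markers all had a difference below 0, with a median of -1.09, and none passed. Acta1, the skeletal actin, was at 10.01 on D0 replicate 5 and at 8.26 on replicate 3, against 6.98 to 7.83 on the other D0 arrays and 5.50 to 7.37 on D28. Type II cell markers had a median change of 0.07 and per-array means of 13.79 to 13.92 on D0 and 13.72 to 14.10 on D28. T and NK cell markers had a median of 0.01 and macrophage markers of -0.10.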

How the data were processed

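Total RNA of accessory lobes was labelled with Cy3, and the 23 arrays were put into 4 groups by their titles. The authors deposited the scanner output of each array (Agilent Feature Extraction, version 11.0.1.1 for 22 of them and version 12.0.1.1 for D28 control replicate 4) and a table of the whole series. The deposited values are intensities on a linear scale. The processed signal is corrected for background and spatial trend within an array, and it is not normalized between arrays. The deposited table holds intensities that were quantile normalized, and its columns rank spots as the mean signal of the same array does (Spearman correlation of at least 0.998). The batches that the authors corrected for are not given in the sources used here.

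The log2 processed signal of probes above the 95th percentile of 308 negative control spots on at least 5 arrays was quantile normalized over 23 arrays (40417 of 45598 probes). Outlier spots were set missing. Spots and then probes of a gene were averaged to 23055 genes, of which 6970 had over 1 probe, and 29 genes with missing values were dropped. Of 53 called genes with over 1 probe, 3 had probes of both signs. Symbols were taken by probe name from the scanner output of D28 control replicate 4. Probe positions (rn4) come from the same output.

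A limma model (version 3.58.1, R 4.3.3) with a mean per group had 19 residual degrees of freedom, and p-values were adjusted by Benjamini-Hochberg over all genes. Every adjusted p printed is from limma, and the fit was tested on simulated data. The number of arrays limits the precision. Where no array of a group measured a gene above background, the change was also taken from a detection floor. On each array this floor was the lowest signal among probes well above background, and lower signals of the gene were raised to it. A change from the floor depends on the background correction and is not a minimum. The members and the 41 lists were chosen with earlier results of these data known. Named genes were all clock members, the 12 largest non-overlapping rises and falls without provisional symbols, up to 6 called members of each list (or those of lowest p where none was called), called markers, and genes of the difference contrast. Some genes that this rule names are not reported here, and they are kept in the counts. Alternatives were cyclic loess, scaling to the 75th percentile, the deposited table, normexp background correction (offset 50), other probe filters, the brightest probe, the filtered-air arrays alone, slide and replicate blocks, array weights, an intensity trend, other thresholds, and leaving out each array. Replicate numbers of the 2 days were not taken as pairs.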

Additional observations from a re-analysis of the deposited data

Results flagged for a closer look

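For 7 genes the change from D0 to D28 differed between exposed and filtered-air lungs in limma. The exposed change minus the filtered-air change was 4.49 for Nr1d1, 3.91 for Dbp, 1.97 for Rasd2, 1.80 for Nr1d2, 0.81 for Grin2c, -1.55 for Prss30 and -1.67 for Cry1 on the log2 scale. Between 6 and 11 genes passed when 1 array at a time was left out.

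Single arrays stood apart from the other 5 of their group for 11 of 170 sets of a named gene and a day, judged by the gap to the nearest array over the range of the group. Chance flags about 1 in 20 groups. On D0 these were Arntl on replicate 3 (high, 0.774 of the range), and on replicate 6 Atp5f1c (low, 0.716), Bhlhe40 (low, 0.656) and Rasd2 (low, 0.653). On D28 they were Acta1 (low, 0.756) and Plin1 (high, 0.828) on replicate 4, Per3 (high, 0.805) and Trat1 (low, 0.773) on replicate 3, and Angptl4 (high, 0.637), Atf3 (high, 0.795) and Ifit3 (low, 0.692) on replicate 6. Of these, Arntl, Bhlhe40, Rasd2 and Angptl4 passed both thresholds between the days.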

How the results depend on the processing

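Dbp, Per2, Tef, Npas2, Arntl, Eln, Col1a1 and Col3a1 stayed past both thresholds in all 37 alternative fits, with Eln between 2.30 and 2.45 and Dbp between -4.28 and -4.02. Main counts were 140 genes in filtered air (89 higher, 51 lower), 7 in the difference, 9 and 3 in the clock arms, 5 matrix and 7 metabolism members. With normexp, 55 were higher and 14 differed. Requiring signal well above background gave 77 lower and 13 in the difference, and an intensity trend gave 12 there. Matrix members were 8 with the brightest probe and 8 with slide as a block, and metabolism members were 4 on the 12 filtered-air arrays alone. An unadjusted p gave 763 genes (372 higher, 391 lower) and 461 in the difference. The arrays of shared slides with slide as a block gave 51 genes (28 higher, 23 lower), 5 in the Nr1d1 arm, 3 matrix and 3 metabolism members. Without D0 replicates 3 and 5 there were 64 genes (37 higher, 27 lower) and 3 metabolism members. The last 2 settings were chosen after seeing the data.

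Leaving out 1 array gave 87 to 199 genes, 53 to 103 higher, 32 to 96 lower, 6 to 11 in the difference, 8 to 10 and 2 to 3 in the clock arms, 5 to 7 matrix and 4 to 13 metabolism members. The fewest higher genes came without D28 replicate 2, the fewest lower without D0 replicate 1, and the most lower without D28 replicate 1. Metabolism members were 13 without D0 replicate 6 and 11 in the difference without exposed D28 replicate 4. The deviations of same-numbered control arrays of the 2 days correlated at 0.20, 0.34 and 0.39 for replicates 1, 5 and 6 and at -0.07, -0.15 and -0.19 for replicates 2, 3 and 4, so the numbers were not taken as pairs. With the replicate block 123 genes passed, 113 of them shared, with 5 in the difference, 8 and 3 in the clock arms, 5 matrix and 6 metabolism members.

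With the brightest probe, Bhlhe41 turned to -0.27 and Clock to -0.34. Prss30 turned to -0.009 on the shared slides and lay between -0.0014 and 0.11 without 1 array. With normexp, Cxcl6 was 0.36, Ciart -0.23, Car5a -0.74, Hlf -0.63, Pdk4 0.645 and Scara5 0.36. Calls were lost in 15 settings for Cdkn1a, 14 for Cxcl6, 13 for Pdk4, 12 each for Angptl4, Ciart and Srebf1, 9 for Nfil3, 7 for Inmt and 6 for Bbc3. Calls were gained in 10 settings for Hspb8, 7 for Fcrla, and 4 each for Per3 and Pf4. The causes were not tested.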
